A study of Mus musculus with 8 samples.

Results

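The cells described here are the mesenchymal-like cells of a large pancreatic tumor of the KPC mouse, 195 of the 1533 cell columns of that tumor (12.7%, exact 95% binomial interval 11.1 to 14.5) and of the 4345 cells of the series. The cells were chosen by their own counts, not by a deposited annotation. A cell was taken as mesenchymal-like when it had at least 1 UMI (unique molecular identifier, which stands for 1 captured mRNA molecule) for 3 or more of 6 mesenchymal genes, Vim, Lgals1, Igfbp4, Igfbp7, Msn and Cdkn2a. It could have a UMI for at most 2 of 11 epithelial genes (the keratins Krt7, Krt8 and Krt18, the claudins Cldn3, Cldn4 and Cldn7, and Cdh1, Spint2, Tspan8, Elf3 and Muc1), at most 1 of 8 myeloid genes (Lyz2, C1qa, C1qb, C1qc, Cd68, Csf1r, Cd14, Fcgr3) and at most 1 of 4 fibroblast genes (Col1a1, Col1a2, Col3a1, Dcn). These 29 genes chose the cells, so their levels below are a description.

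Single cells of 2 tumors, labelled as of medium and of large size, were dissociated with a Miltenyi kit and run in 10x Genomics droplets, which tag the 3′ ends of mRNAs. The mice carried LSL-Trp53R172H/+ and Pdx-1-Cre among their alleles, so both tumors share the mutant Trp53 allele, which Cre switches on in the cells of the pancreas lineage that express it, and both mice were untreated controls. Age and sex are not in the labels. The 4 technical replicates of each tumor are pooled in 1 count table, so each tumor is 1 sample, no value below has a replicate error, and no test was made. All intervals are 95% intervals for counting error only, exact Poisson for sums and exact binomial for shares.

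Pancreatic ductal adenocarcinoma arises from epithelial cells, which are held together by E-cadherin and claudins and built on keratins. In an epithelial-to-mesenchymal transition such cells lose these genes and gain vimentin, fibronectin and other genes of migrating cells, under repressors such as Zeb1, Snai1 and Snai2 that bind E-box sequences of epithelial promoters. Fibroblasts, endothelial cells and pericytes of the tumor also hold vimentin, so vimentin alone does not tell a tumor cell from a stromal one.

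The table of the large tumor sums to 2239012 UMIs (median per cell 1037) and that of the medium tumor to 20301669 over 2812 cells (median 5456.5). The mesenchymal-like cells together hold 268502 UMIs, with a median of 1189 UMIs (range 533 to 5614) and 650 detected genes per cell. In these cells 3 counts, taken as the limit for a count of 0, stand for 11.2 CPM (UMIs out of 1000000 UMIs of the group of cells). The exact Poisson intervals end somewhat higher for a count of 0. The tables share 5 cell barcodes, 1 of them of a mesenchymal-like cell. The doublet caller Scrublet called 9 cells of the large tumor and none of the 195.

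The rule leans on detection, and detection on depth. Of the 195 cells, 87 had 3 of the 6 mesenchymal genes, 66 had 4, 33 had 5 and 9 had all 6. No epithelial gene of the rule was seen in 24 cells, 1 in 74 and 2, the highest number allowed, in 97. Of the 1230 cells of the tumor within the myeloid and fibroblast limits, 455 had 3 or more mesenchymal genes, and the other 260 of these were kept apart as double-positive cells because they also had 3 or more epithelial genes. Double-positive cells had a median of 2319.5 UMIs. When every cell was thinned to 500 UMIs before the rule was applied, 151 cells (9.85%) passed. Of those, 81 were mesenchymal-like at their own depth and 67 were double-positive, and 114 of the 195 no longer reached any class. Cells cross the limit of 2 epithelial genes as their depth changes, so the double-positive cells are given beside the others.

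**Figure D1:**
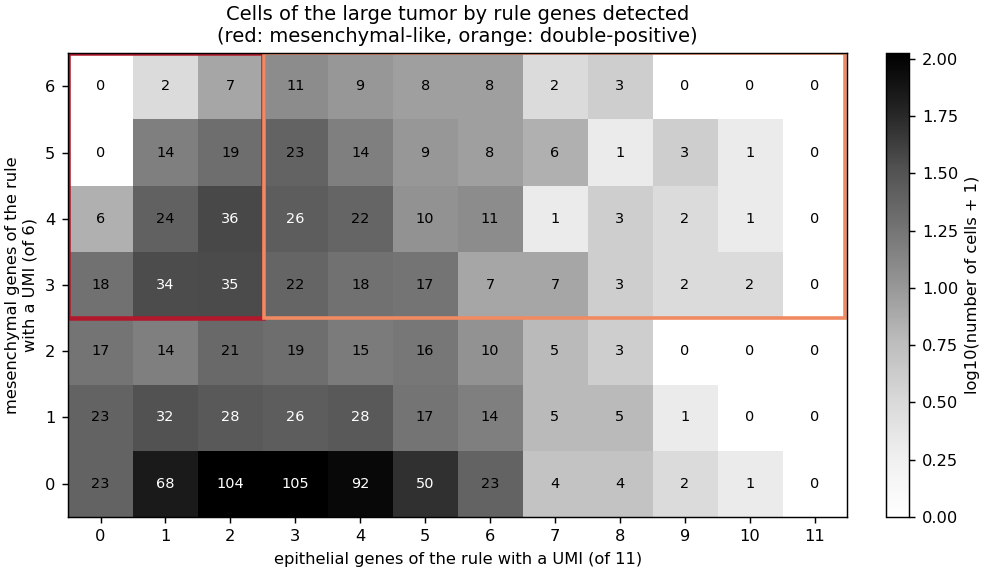
Cells of the large tumor within the myeloid and fibroblast limits, by the number of the 6 mesenchymal genes (vertical axis) and of the 11 epithelial genes (horizontal axis) of the rule with a UMI, with the number of cells printed in each square and shaded on a log10 scale. The red box holds the 195 mesenchymal-like cells and the orange box the 260 double-positive cells, and the cells run on across the border between them without a gap (97 cells at 2 epithelial genes and 82 at 3).

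Promoters of the epithelial genes are shown here because the levels of these genes set the cells apart and because the E-box is the sequence that the repressors named above are known to bind. The letters searched were CACCTG on either strand (read as CAGGTG on the other), in windows of 250 bases before to 50 after the start site from RefSeq (GRCm38.p6). A gene was counted once if any of its promoters held the motif. The motif stood in 9 of the 10 epithelial genes of the rule that had a promoter in the table, in 8 of 12 further epithelial genes and in none of 5 mesenchymal genes of the rule. Cdh1 and Lgals1, also of the rule, had no promoter there and were not searched. Among the genes named below against epithelial-like cells, it stood in 1 of 8 higher and 3 of 6 lower genes with a promoter. Counted in the same way it stood in 22.6% of all 27025 genes with a promoter and in 19.6% of those tested against epithelial-like cells. A match is a description of the letters in this window and says nothing on binding. The 3 promoters below, of the cell adhesion molecule Epcam, the tight junction protein Cldn4 and the protease inhibitor Spint2, are given from 200 bases before to 20 after the start, 5′ to 3′ on the strand of the gene, with the motif in capitals. They lie at chr17:87635779-87635998 (plus strand, 2 matches), chr5:134946915-134947134 (minus strand, 2 matches) and chr7:29281958-29282177 (minus strand, 3 matches).
Epcam: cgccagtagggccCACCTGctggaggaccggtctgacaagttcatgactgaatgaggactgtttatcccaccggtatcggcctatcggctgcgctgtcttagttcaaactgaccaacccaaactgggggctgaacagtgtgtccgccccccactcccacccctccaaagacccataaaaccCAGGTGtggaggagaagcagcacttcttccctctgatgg
Cldn4: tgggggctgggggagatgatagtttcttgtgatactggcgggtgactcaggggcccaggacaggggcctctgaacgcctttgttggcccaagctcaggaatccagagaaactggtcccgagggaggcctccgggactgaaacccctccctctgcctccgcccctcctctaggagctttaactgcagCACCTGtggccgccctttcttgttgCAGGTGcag
Spint2: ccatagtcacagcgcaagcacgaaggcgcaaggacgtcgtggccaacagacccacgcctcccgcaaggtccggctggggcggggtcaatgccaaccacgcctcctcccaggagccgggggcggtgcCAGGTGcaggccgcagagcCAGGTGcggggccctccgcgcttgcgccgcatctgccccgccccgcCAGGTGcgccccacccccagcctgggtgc

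For the mesenchymal genes of the rule, the class sums followed from the choice of cells. Igfbp7, an insulin-like growth factor binding protein of the matrix, had 680 UMIs or 2533 CPM (2346 to 2730). Lgals1, galectin-1, had 1605 CPM (1457 to 1764). Vim, the intermediate filament of mesenchymal cells, had 1520 CPM (1376 to 1674). Fibroblast-like cells, 44 cells with 2 or more of the 4 fibroblast genes and within the epithelial and myeloid limits, had higher levels of these, with 5368, 4820 and 2410 CPM. Igfbp4 was at 864 CPM, Msn, a linker of actin to the membrane, at 324, and Cdkn2a, the gene of the cell cycle inhibitor p16 and of Arf, at 257 CPM (200 to 325). Cdkn2a stood at 236 CPM in double-positive cells, 62.2 in epithelial-like cells, 21.9 in macrophage-like cells (171 cells) and 36.5 in fibroblast-like cells, the last from 2 UMIs. Mesenchymal genes have a minimum number in double-positive cells and a highest number in epithelial-like cells, so the levels there follow in part from the choice. Epithelial-like cells are the 303 cells with 3 or more epithelial genes, at most 2 mesenchymal genes, at most 2 of 12 gut epithelium genes, and within the myeloid and fibroblast limits (median 1271 UMIs).

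Genes that the rule did not use were compared with the label. Markers of fibroblasts, pericytes and T cells were at or near 0. Of 16 further fibroblast genes 13 had no UMI, and the list summed to 22.4 CPM (8.20 to 48.6), against 15.5 in epithelial-like cells. Of 10 pericyte and smooth muscle genes 9 had none, and the list summed to 14.9 CPM against 511 in fibroblast-like cells. The 10 T and NK cell genes in the table gave 1 UMI. Of the 10 further myeloid genes 9 had a UMI, with a sum of 179 CPM against 12823 in macrophage-like cells and 95.5 in epithelial-like cells. Red blood cell genes stood at 488 CPM (408 to 579) against 131 in epithelial-like cells, mostly from Hbb-bs, the beta globin, which was seen in 13.8% of the cells. Granulocyte and mast cell genes stood at 693 CPM (597 to 800) against 480 (418 to 548) in epithelial-like cells and 3215 in macrophage-like cells. A UMI of these 9 genes was in 73 cells and 2 or more genes were in 18, mostly S100a8 and S100a9 of neutrophils (86 and 72 UMIs), and 4 of the 9 genes had none. The cells with granulocyte, red blood cell or myeloid genes were kept, and the part of the globin, granulocyte and myeloid UMIs in the results was not tested.

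Endothelial genes marked a small separate group. Of 11 endothelial genes, 10 had a UMI, and the list summed to 350 CPM (283 to 428), against 44.4 in epithelial-like cells. The UMIs were gathered in few cells. A UMI for 2 or more of the genes was found in 7 cells, all of which had the endothelial cadherin Cdh5, and Kdr, Egfl7 and Emcn were each in 5 of the 7 and in none of the other mesenchymal-like cells. A further 23 cells had 1 gene, for the most part Flt1 (20 cells, 21 UMIs). In the 7 cells Spp1 stood at 1404 CPM (802 to 2279) and Igfbp7 at 12808 CPM (10815 to 15062), and Epcam, Krt19, Hmga2 and Ggct had no UMI, where 3 counts would stand for 263 CPM. These 7 cells gave 21.5% of the Igfbp7 UMIs of all 195 cells, 45 of the 49 UMIs of Sparc, a matrix protein, and all 24 UMIs of Ctla2a. Without the 8 cells that had 2 or more genes of 1 of 5 lists (endothelial, pericyte, mesothelial, T and NK, or B and plasma cells), 187 cells remained, with Spp1 at 38413 CPM, Fn1 at 2117, Tm4sf1 at 3969 and Igfbp7 at 2062, and the counts of genes past the fold within the large tumor, given below, moved by less than 1.5 times.

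Spp1, osteopontin, a secreted phosphoprotein that binds integrins and CD44, was the most abundant of the genes named here. It took 36756 CPM (36034 to 37488), that is 9869 UMIs, against 23173 in double-positive cells, 8341 in epithelial-like cells, 11296 in macrophage-like cells and 3505 in fibroblast-like cells. Among single cells, the share of UMIs from Spp1 had a median of 2.68%, with a highest value of 19.99% and a 90th percentile of 8.69%. No UMI of Spp1 was found in 6 of the 195 cells, against 64 of the 303 epithelial-like cells, whose median share was 0.341%. After thinning to 500 UMIs per cell, 93.3% of the mesenchymal-like cells and 66.3% of the epithelial-like cells had Spp1, and so did 45.5% of the fibroblast-like cells. The gene lies at chr5:104435118-104441050 on the plus strand (GRCm38).

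Tm4sf1, a membrane protein of the tetraspanin-like L6 family, had 3922 CPM (3688 to 4166) against 731 in epithelial-like cells, 767 in fibroblast-like cells and 21.9 in macrophage-like cells. Its ratio to epithelial-like cells was 5.37 (exact interval 4.74 to 6.09). It was detected in 84.1% of the cells and in 75.9% after thinning, against 19.8% of epithelial-like and 0.585% of macrophage-like cells after thinning. Fn1, fibronectin, had 2034 CPM (1866 to 2211) in mesenchymal-like cells and 193 in epithelial-like cells, but 5158 in macrophage-like cells and 2118 in fibroblast-like cells, and 53 of the 195 cells had none. S100a6, a calcium-binding protein, was near in mesenchymal-like and double-positive cells, with median shares of 1.23% and 1.21% per cell, against 0.588% in epithelial-like cells. The double-positive cells stood between the mesenchymal-like and epithelial-like cells for Spp1, Tm4sf1, Fn1 and S100a6.

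**Figure D2:**
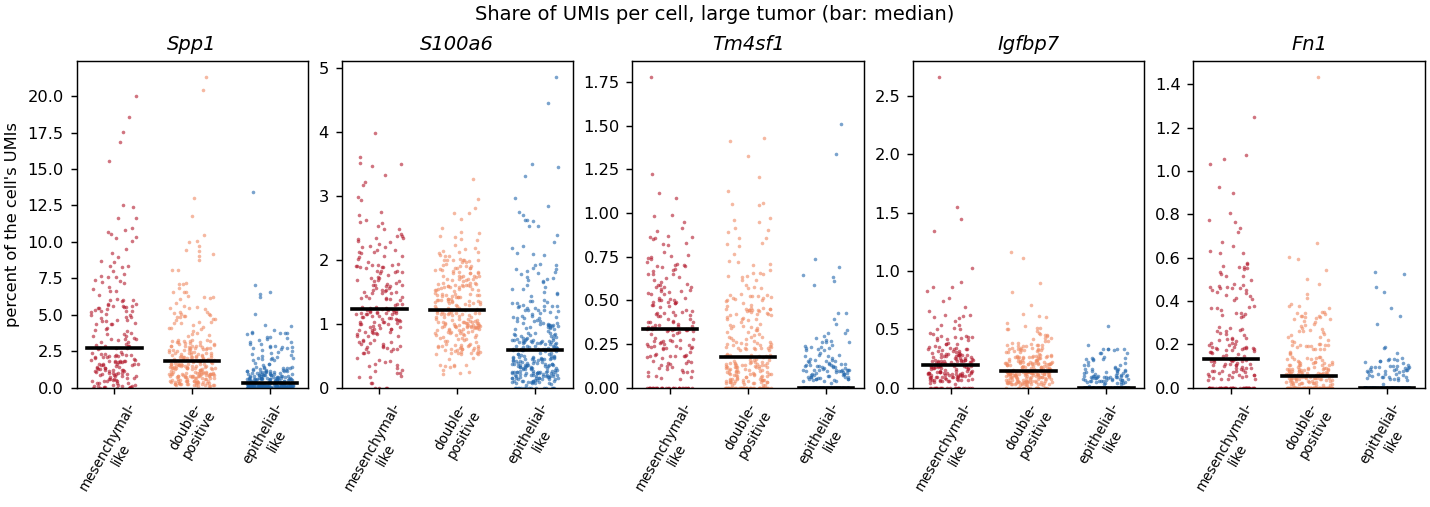
Share of the UMIs of each cell of the large tumor from 5 genes (vertical axes, percent of the UMIs of the cell, each gene on its own scale) in the 195 mesenchymal-like, 260 double-positive and 303 epithelial-like cells, 1 point per cell with a bar at the median. The median of Spp1 is 2.68%, 1.80% and 0.341% in this order, and single cells of all 3 classes overlap for every gene.

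Against the epithelial-like cells, 1924 genes outside the rule had at least 50 UMIs in both classes together. With 10 CPM added to both, 112 of these (5.82%) were higher in the mesenchymal-like cells by a ratio of at least 2 and 143 (7.43%) were lower, and the median log2 ratio was 0.0074. Classes drawn by the rule from 1 table must differ in genes that go along with the rule, so these counts describe the classes. Beside Fn1 (10.5-fold, 8.38 to 13.4), the 10 highest ratios among genes seen in 10% of the cells were those of Ggct, Ank, S100a4, Cald1, Rbp4, Hmga2, Rgs2, Mmd and Nrn1. Ggct, an enzyme of glutathione breakdown, had 99 UMIs (369 CPM) against 8 (17.8 CPM), a ratio of 20.7 (10.1 to 49.4). Hmga2, a chromatin protein of fetal tissue, had 287 CPM (226 to 358) against 28.9, a ratio of 9.93 (5.48 to 19.5), and no UMI in fibroblast-like cells. Rbp4, the carrier of retinol, had 574 CPM against 64.4. S100a4, a calcium-binding protein of motile cells, had 335 CPM against 26.7, and the actin-binding Cald1 305 against 28.9. Ank, a membrane protein of pyrophosphate export, had a ratio of 15.1 (6.91 to 39.1). Rgs2, an inhibitor of G protein signalling, had 343 CPM against 37.8. The ratios of Mmd and of neuritin, Nrn1, were 10.8 and 8.28.

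The 10 lowest were, for the most part, genes of gastric and intestinal mucosa. Tff2, a trefoil peptide secreted with mucus, had 4 UMIs (14.9 CPM) in the mesenchymal-like cells against 996 (2213 CPM), so that the epithelial-like cells were 149-fold higher (57.8 to 546). Tff1 stood at 59.6 against 2575 CPM. Agr2, an endoplasmic reticulum protein of mucus-making cells, stood at 48.4 CPM against 2273 and the gut galectin Lgals4 at 22.4 against 1444. The gastrokines Gkn1, Gkn2 and Gkn3, which are secreted in the stomach, had 2, 3 and 16 UMIs against 178, 407 and 765. Reg3b, an antimicrobial lectin, Dmbt1 and Ly6d had 2, 6 and 1 UMIs against 246, 445 and 241. Not all epithelial-like cells had them, with Tff2 in 25.4%, Ly6d in 15.5% and Lgals4 in 60.7% of these cells.

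**Figure D3:**
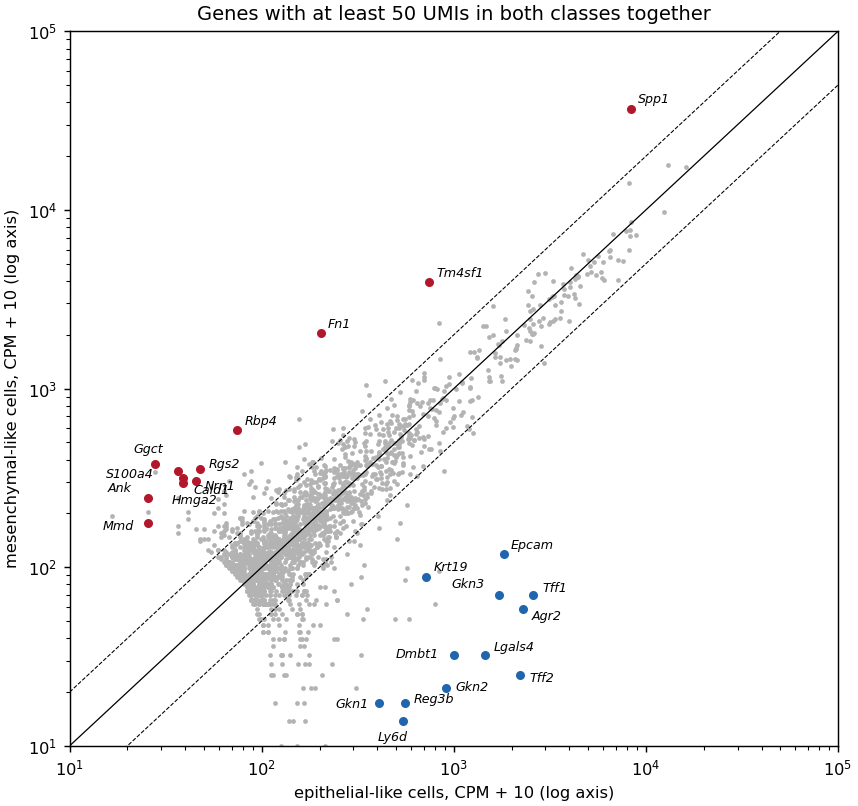
Summed expression in the mesenchymal-like cells (vertical axis) and the epithelial-like cells (horizontal axis) of the large tumor, in CPM with 10 added, on log axes, 1 point for each gene outside the rule with at least 50 UMIs in both classes together. The solid line marks equal levels and the dashed lines a ratio of 2. Spp1, Tm4sf1 and Fn1 (red) lie above the upper dashed line at high levels, and Epcam, Krt19 and the genes of gastric mucosa (blue) below the lower one.

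Epcam and Krt19, epithelial genes outside the rule, were low in the mesenchymal-like cells. Epcam had 29 UMIs, 108 CPM (72.3 to 155), against 671 in double-positive and 1804 in epithelial-like cells. The keratin gene Krt19 had 78.2 CPM against 266 and 706. Their intervals overlapped those in cells of other types. Fibroblast-like cells had 110 CPM (40.2 to 238) of Epcam and 54.8 (11.3 to 160) of Krt19, and macrophage-like cells 51.1 and 43.8. After thinning, Epcam was found in 6.15% of the mesenchymal-like, 6.82% of the fibroblast-like and 2.34% of the macrophage-like cells, with median depths before thinning of 1189, 1193 and 735 UMIs. Whether these UMIs came from free RNA was not tested. Keratins 8 and 18 and Tspan8, which the rule limits to 2 genes per cell but not in UMIs, did not go to that level. Krt18 had 566 CPM (480 to 664) against 73.0 in fibroblast-like and 36.5 in macrophage-like cells. Krt8 had 399 CPM against 91.3 and 43.8, and the tetraspanin gene Tspan8 641 against 128 and 43.8. The claudins were at the other end, with 0 UMIs of Cldn7 (180 CPM in epithelial-like cells), 1 of Cldn4 and 3 of Cldn3, and 8 UMIs of Cdh1, E-cadherin, 29.8 CPM against 271. Of the 21 further epithelial genes, 4 reached 50 UMIs, and Epcam and Krt19 were the 2 past the fold, both lower, beside 7.43% of all genes tested. Against all other cells 13 of the 21 were tested and 8 were lower by a ratio of at least 2 (9.64% of all 4802 genes tested), among them Rab25 and St14, both with 0 UMIs.

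Of 19 genes listed for the epithelial-to-mesenchymal transition, 6 reached 50 UMIs against the epithelial-like cells, and all 6 (Sparc, Fn1, S100a4, Tcf4, Cd44, Itgb1) were higher by a ratio of at least 2, with a median log2 ratio of 2.35 beside 0.0074 over all genes tested, of which 5.82% were higher. Against all other cells 11 of the 19 were tested and 3 (Wnt5a, Tcf4, S100a4) were higher, with a median of 0.71 beside -0.0285 over all genes tested, of which 2.56% were higher. The list summed to 4145 CPM in mesenchymal-like and 793 in epithelial-like cells, and to more in macrophage-like (6890) and fibroblast-like cells (10407). A gene can reach the minimum through the class where it is high, so the count is not read further. Sparc rests on the 7 cells with endothelial genes. Cd44, a receptor of hyaluronan and osteopontin, had 495 CPM against 222, and Itgb1, a shared subunit of the receptors of fibronectin and osteopontin, 399 against 193. The transcription factors of the list were sparse. Zeb1 had 13 UMIs, 48.4 CPM (25.8 to 82.8), in 6.67% of the cells, against 0.660% of epithelial-like cells, which had 2 UMIs or 4.44 CPM (0.538 to 16.1) in epithelial-like cells and 22.5 CPM in double-positive cells. Zeb2 had 41.0 CPM against 6.67, with 263 in macrophage-like cells. Snai1 had 1 UMI and Snai2 had 2, and Twist1, with 6 UMIs, was at 22.4 CPM against 11.1 in epithelial-like and 26.5 in double-positive cells. Cdh2, N-cadherin, was at 52.1 CPM (28.5 to 87.5) against 11.1, with 67.6 in double-positive cells. A difference of Snai1, Snai2 or Twist1 between mesenchymal-like and epithelial-like cells was not detectable at this depth, since the intervals overlap.

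**Figure D4:**
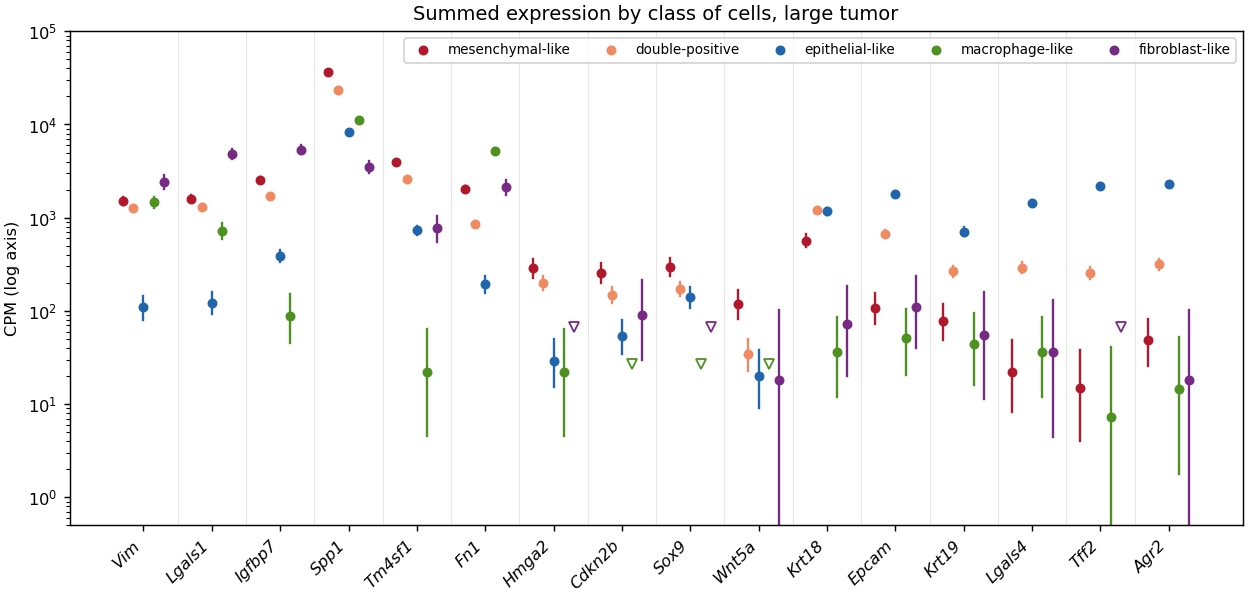
Summed expression of 16 genes (horizontal axis) in 5 classes of cells of the large tumor, in CPM on a log axis, with points for the sums, bars for exact 95% Poisson intervals of counting error and open triangles at the upper limit where a class had no UMI. Spp1, Tm4sf1 and Hmga2 are highest in the mesenchymal-like cells among these classes, Fn1 is highest in macrophage-like cells, and Epcam and Krt19 in mesenchymal-like cells lie near their level in macrophage-like and fibroblast-like cells.

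Cell cycle genes and lineage factors went apart within their lists. Cdkn2b, which codes for p15 and neighbours Cdkn2a on chromosome 4, had 257 CPM (200 to 325) against 53.3 in epithelial-like and 0 in macrophage-like cells, a ratio of 4.82 (2.99 to 8.02). Cdk6, one of the kinases that p15 and p16 inhibit, had 171 CPM against 80.0. Perp, a desmosome-associated target of p53, was lower, with 44.7 against 269 CPM, and so was Ccnd2, cyclin D2, with 52.1 against 207. These were the 4 past the fold of the 8 genes tested, beside 5.82% higher and 7.43% lower over all genes tested. The list holds 25 genes of the p53 pathway, cell cycle inhibitors, cyclins and their kinases. Sox9, a transcription factor of duct and progenitor cells of the pancreas, had 298 CPM (236 to 371) against 140 in epithelial-like and 171 in double-positive cells and none in macrophage-like or fibroblast-like cells. Klf5, a factor of epithelial cells, was lower, with 22.4 against 118, and Foxa1 had 0 UMIs against 62.2 CPM. Of the 20 lineage genes, 6 were tested, with Sox9 higher and Klf5, Tff1, Tff2 and Gkn1 lower, at a median log2 ratio of -3.26. Over all genes tested, 5.82% were higher and 7.43% lower. Tff1, Tff2 and Gkn1 had 16, 4 and 2 UMIs against 1159, 996 and 178, so they reached the minimum through the epithelial-like cells. The count and the median are therefore not read further. Gata6 was at 52.1 CPM (28.5 to 87.5) against 46.7 (28.9 to 71.3), within counting error.

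The 36 genes for matrix and proteases and those of the TGF-beta family gave further members. In the first list, 13 genes were tested against the epithelial-like cells and 4 were higher (beside 5.82% of all genes tested), Spp1, Timp2, Plat and Ctsl. Timp2, an inhibitor of metalloproteinases, had 320 CPM against 71.1, Plat, the tissue plasminogen activator, 376 against 122, and Ctsl, the protease cathepsin L, 2317 against 824. Mmp13, a collagenase that missed the minimum of 50 UMIs in this pair of classes, had 27 UMIs, 101 CPM (66.3 to 146), against 1 UMI in epithelial-like cells. Of the 21 genes of the TGF-beta family 5 were tested, and Id3 was past the fold, higher, beside 5.82% of all genes tested. The ligand Bmp2 and the latency protein Ltbp1, under the minimum here, each had 101 CPM against 8.89 and 11.1. Id3, a target of BMP signalling, had 335 CPM against 77.8, with 35 of its 90 UMIs in the 7 cells with endothelial genes. Tgfb1 had 2 UMIs and Tgfb2 none. Wnt5a, a secreted ligand of the non-canonical Wnt pathway, had 119 CPM (81.5 to 168) (32 UMIs) against 9 UMIs in epithelial-like cells and 34.5 CPM in double-positive cells and 0 UMIs in macrophage-like cells. It was seen in 14.4% of the mesenchymal-like and 2.97% of the epithelial-like cells.

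The lists of proliferation, glycolysis and the stress response are read beside the shares over all genes tested, 5.82% higher and 7.43% lower. None of 16 S-phase genes was past the fold (3 tested, median log2 ratio 0.72), nor any of 17 mitosis genes (6 tested, median 0.035). The list sums were higher than in epithelial-like cells. S-phase genes summed to 1196 CPM (1068 to 1334) against 797.6 (717.2 to 884.5). Mitosis genes summed to 5918 CPM (5631 to 6216) against 4472 (4279 to 4672). Mki67 had 0 UMIs in the mesenchymal-like cells, where 3 counts stand for 11.2 CPM, against 11.1 CPM in epithelial-like cells. Top2a had 59.6 CPM (34.1 to 96.8) against 24.4 (12.2 to 43.7). Of 18 genes of hypoxia and glycolysis 8 were tested and none was past the fold (median 0.017). Of 20 stress and immediate early genes 19 were tested, with Klf2 higher (153 against 59.99 CPM) and the heat shock genes Hspa1a and Hspa1b lower (212 against 562 and 41.0 against 151), at a median of -0.33. Of 17 genes of glutathione transfer and antioxidant defence 10 were tested and 4 were lower (beside 7.43% of all genes tested), Gsta4, Gsta1, Mgst1 and Gstm1, with Gsta4 at 85.7 against 826 CPM and a median of -0.87. Of 22 class I histocompatibility and interferon genes 5 were tested and 2 were lower (beside 7.43% of all genes tested). The list summed to 1806 CPM (1649 to 1974) against 1789 (1667 to 1916), within counting error. The 2 were H2-K1, a class I gene, with 55.9 CPM (31.3 to 92.1) against 238 (195 to 287), and the interferon-induced Ifitm3, with 182 against 393. Of 19 chemokine and cytokine genes 6 were tested, with 1 higher and 1 lower and a median of -0.024. The neutrophil attractant Cxcl1 was higher, with 1091 CPM against 429, and Cxcl5, a chemokine of the same receptor, lower, with 18.6 against 167.

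Against all other cells of the tumor together, 123 of 4802 genes (2.56%) were higher by a ratio of at least 2 and 463 (9.64%) lower, with a median log2 ratio of -0.0285. The 10 highest were Wnt5a, Ggct, Nrn1, Ank, Ackr3, Gm5549, Tcf4, Rgs2, Bmp2 and Mmp13, with ratios from 3.54 for Rgs2 to 5.34 for Wnt5a (3.28 to 8.61). Ackr3, a scavenging receptor of chemokines, had 127 CPM, and Gm5549, a predicted gene, 123. Of these, Ackr3, Tcf4 and Bmp2 were short of the fold, with log2 ratios of 0.88, 0.77 and 0.91, when the double-positive cells were counted with the mesenchymal-like ones, an alternative chosen after seeing the data. Ggct and Bmp2 depended on the limit of epithelial genes. With at most 1 such gene allowed, their log2 ratios were 0.85 and 0.86 in place of 1.96 and 1.67, short of the fold. Of the 99 UMIs of Ggct, 73 came from the 97 cells with 2 epithelial genes and 1 from the 24 cells with none. Those 24 cells also held more of the endothelial genes, at 1581 CPM (1124 to 2162) against 128 (77.2 to 200) in the 97. The 7 cells with endothelial genes had no Ggct UMI, and their part in these ratios was not tested. The 10 lowest were Tff2, Reg3b, Lgals4, Prap1, Agr2, Fabp1, Dmbt1, Tff1, Tm4sf20 and Ccl2. Most of these mark other classes, since Fabp1, the fatty acid binding protein of gut and liver, had 4920 UMIs in the other cells, and Ccl2, a monocyte attractant with 5 UMIs here, was at 2243 CPM in macrophage-like and 4619 CPM in fibroblast-like cells.

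Among the 195 cells, Spp1 and Tm4sf1 varied little with the number of mesenchymal genes and Epcam more. Cells with 3 mesenchymal genes and those with 5 or 6 had Spp1 at 37842 (36622 to 39093) and 36760 CPM (35438 to 38118), and Tm4sf1 at 3562 and 3992 CPM. Epcam stood at 229 CPM (144 to 347) in the first and 25.2 (3.05 to 91.0) in the second, from 22 and 2 UMIs. Hmga2 was at 198, 419 and 239 CPM in cells with 3, 4 and 5 or 6 of the genes, an order that does not follow their number. The depths of the first and last subset differ, with medians of 995 and 1694.5 UMIs. Just outside the rule, the 52 cells with 2 mesenchymal genes had Spp1 at 30433 CPM, Tm4sf1 at 2350, Fn1 at 1763 and Epcam at 344. The 82 cells with 3 epithelial genes, also outside, had Spp1 at 30968 CPM, Tm4sf1 at 3903, Fn1 at 1431 and Epcam at 292, and the 97 cells with 2, inside, had 41041, 3987, 1930 and 121. Cells below and above the median depth had Spp1 at 38362 and 36006 CPM, Hmga2 at 339 (227 to 487) and 262 (193 to 348), and Ggct at 222 (134 to 347) and 437 (347 to 544).

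The medium tumor had 18 mesenchymal-like cells by the same rule (0.640% of 2812), at a median of 3859.5 UMIs, and 987 double-positive cells, and the difference in depth makes these counts not comparable. With every cell of both tumors thinned to 500 UMIs, 263 cells of the medium tumor (9.35%, 8.30 to 10.5) and 151 of the large tumor (9.85%, 8.40 to 11.5) passed. Of the 263, 126 were double-positive and 121 were in no class at their own depth. The mesenchymal genes of the rule, which chose both sets of cells, summed to 10185 CPM (9478 to 10931) in the large and 12175 (11586 to 12786) in the medium tumor. None of the 6 was past the fold. Vim stood at 2252 and 1916 CPM, Igfbp7 at 3126 and 3468, Igfbp4 at 1311 and 1544, and Cdkn2a at 596 and 753, all with intervals of the ratio that include equal levels. Lgals1 stood at 2490 and 3696 and Msn at 411 and 798, with intervals of the ratio of 0.566 to 0.799 and 0.333 to 0.774. Since these genes chose the cells, no interval is read as a difference between the tumors or as the lack of one. The rule sets no limit on them in macrophage-like and fibroblast-like cells. Lgals1 was at 737 against 1200 and 5277 against 6727 CPM there. Msn was at 196 against 335 and 170 against 222 CPM, with intervals that include equal levels. Hmga2, outside the rule, was at 318 and 289 CPM, a ratio of 1.10 with an interval of 0.631 to 1.88.

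Of 583 genes tested between the tumors, 79 (13.6%) were higher in the large tumor and 102 (17.5%) lower by a ratio of at least 2, and with cells at their own depth 236 were higher and 105 lower. The tumors are 1 mouse and 1 library each, so size, animal (with its sex) and library cannot be told apart. Markers of other cell types differed between the 2 sets of cells as well. In the large against the medium tumor, the fibroblast genes outside the rule summed to 92.7 (37.3 to 191) against 646 CPM (516 to 799), the 4 of the rule to 66.2 against 411, pericyte genes to 0 against 251, endothelial genes to 159 against 563, mesothelial genes to 146 against 449 and the myeloid genes outside the rule to 159 against 821. Granulocyte and mast cell genes, at 901 against 68.4 CPM, and red blood cell genes, at 503 against 60.8, were higher in the large tumor. Their part in the counts of genes past the fold was not tested. Xist, the RNA that coats the inactive X chromosome, had 274 UMIs in the large tumor and none in the medium one. The same held in epithelial-like cells (311 against 0), macrophage-like cells (128 against 0) and fibroblast-like cells (53 against 0). The labels do not give the sex of the mice, and its part in the other genes was not tested. The other 9 highest were Wdr89, Tm4sf1, Errfi1, Cks2, H2afz, Ssr3, Sec61g, Lsm8 and 1810037I17Rik. The 10 lowest included Ctla2a, Gkn1, Lgals4, Ifitm2, Ftl1, Pfn1, Tecr, Gpx4 and Gapdh. Other classes of cells moved along. Of the 10 highest, 7 were past the fold in the same direction in epithelial-like cells, 4 in macrophage-like and 7 in fibroblast-like cells, and of the 10 lowest 9, 10 and 9. Gapdh, a glycolytic enzyme, for example, had 331 against 2456 CPM in mesenchymal-like cells and 541 against 3157 in macrophage-like cells, and Ftl1, the ferritin light chain, 636 against 8388 and 3534 against 20173.

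Tm4sf1 had 3404 CPM (3000 to 3847) in the large and 601 (476 to 749) in the medium tumor, a ratio of 5.67 (4.39 to 7.39), while epithelial-like cells gave 645 against 254 and macrophage-like cells 2 UMIs each. Cks2, a partner of cyclin-dependent kinases, had 503 CPM against 114, and Sec61g, a subunit of the protein translocation channel, 808 against 221. Both depended on the random draw of the thinning, since another draw gave log2 ratios of 0.74 and 0.69 in place of 2.05 and 1.83, both short of the fold. Ctla2a, a cysteine protease inhibitor, had 1 UMI against 129, a ratio of 74.1 with an interval of 13.1 to 2948.

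**Figure D5:**
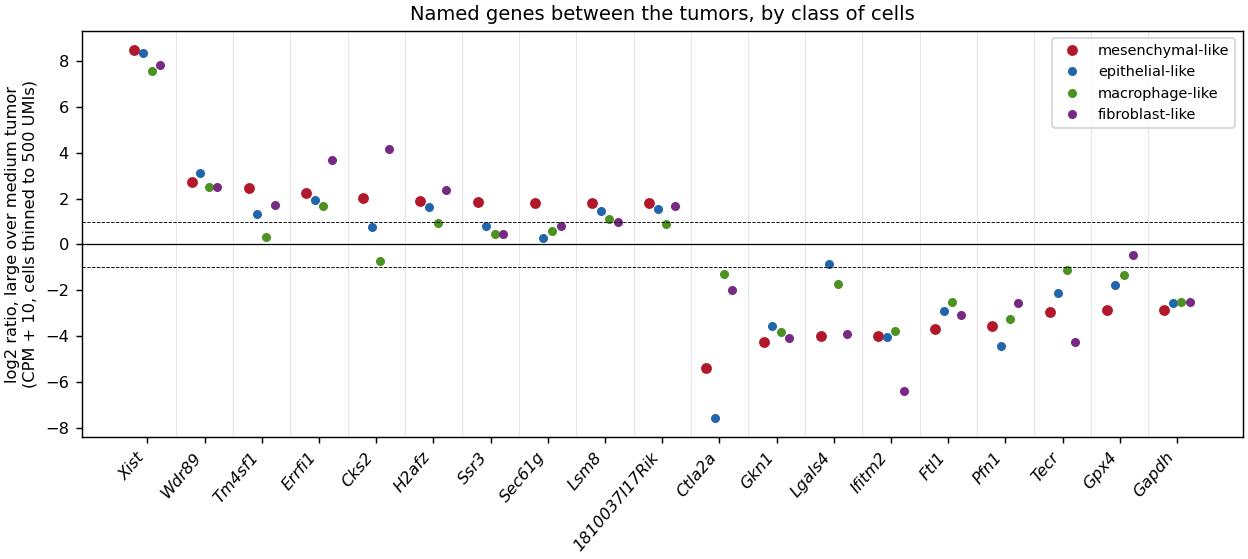
Log2 ratio of the large over the medium tumor (vertical axis, CPM with 10 added, cells thinned to 500 UMIs) for the named genes (horizontal axis) in 4 classes of cells, with dashed lines at a ratio of 2 either way. Xist and Wdr89 are higher and Gapdh, Ftl1 and Pfn1 lower in all 4 classes, while Tm4sf1 is past the fold in mesenchymal-like, epithelial-like and fibroblast-like cells and not in macrophage-like cells.

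Within each tumor the thinned mesenchymal-like cells were set against the thinned epithelial-like cells over 440 genes with enough UMIs in both tumors. In the large tumor 22 genes were higher by a ratio of at least 2 and in the medium tumor 11, and 5 were in both lists (22.7% and 45.5% of them), Tm4sf1, Spp1, Mtpn, Fbln2 and Nfkbia. Spp1 had 34371 against 12328 CPM in the large and 19346 against 8600 in the medium tumor. Lower genes numbered 27 and 17, with 13 in both (48.1% and 76.5%), among them Epcam, Krt19, Tff1, Tff2, Agr2, Lgals4, Dmbt1, Gsta1 and Gsta4. Epcam was at 159 against 1989 CPM in the large tumor and 160 against 1792 in the medium one. The rule drew both pairs of classes with the same genes, so the shared genes describe what goes along with the rule in each library.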

How the data were processed

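The authors captured cells with 10x v2 chemistry, and the submitters' processing notes name Cell Ranger and mm10. The version and annotation are not given in the sources used here. The deposited UMI counts are whole numbers without normalization, in 27775 gene rows per tumor (47 are further rows of repeated symbols, kept apart). The library names in the labels tie 1 table to each tumor. Mitochondrial genes hold 0 UMIs. No cell or doublet was removed. Some items are not reported here.

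UMIs were summed per class and given as CPM. Ratios had 10 CPM added to both sides for the log2 values and the fold of 2, and the ratios printed as such had none, with exact conditional intervals. Genes needed 50 UMIs in both classes together, and rule genes were left out of the counts past the fold. Named genes are the 10 highest and 10 lowest per comparison with a UMI in 10% of the cells of the higher class, ribosomal protein genes left out, plus members of 36 gene lists. The cells and lists were chosen with earlier results of these data known. Thinning drew 500 UMIs per cell at random without replacement. Alternatives included TMM factors (edgeR 4.0.16), median-of-ratios scaling, other minimums and other limits of the rule. Python 3.11.15, numpy 2.4.6, scipy 1.17.1 and scanpy 1.11.5 were used, and the steps were tested on simulated data. Gene positions came from GENCODE on GRCm38.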

Additional observations from a re-analysis of the deposited data

Results flagged for a closer look

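In both tumors, thinned to 500 UMIs per cell, the mesenchymal-like cells were compared with the epithelial-like cells over 440 genes, and 2 genes were past the fold in opposite directions. S100a9, a calcium-binding protein of neutrophils, was higher in the mesenchymal-like cells of the large tumor (530 against 190 CPM, 40 and 18 UMIs) and lower in those of the medium tumor (22.8 against 109 CPM, 3 and 69 UMIs), a difference of 3.29 between the log2 ratios. At the cells' own depth, with the classes drawn there, S100a9 in the large tumor was at 268 against 202 CPM (72 and 91 UMIs, a log2 ratio of 0.39), short of the fold. Both the depth and the cells chosen differ there, and their parts were not tested. The contrast was taken from 1 draw of the thinning. Ifitm3, an interferon-induced membrane protein, was lower in the large tumor (199 against 497 CPM) and higher in the medium tumor (616 against 240 CPM), a difference of -2.61. Other cell types hold Ifitm3, with 3313 CPM in the fibroblast-like cells of the medium tumor, where the mesenchymal-like cells had 646 CPM of further fibroblast genes against 92.7 in the large tumor. In the large tumor, at the cells' own depth, 18 of the 49 Ifitm3 UMIs came from the 7 cells with endothelial genes. The part of these cells in the contrast was not tested. The differences were not tested, since each tumor is 1 sample.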

How the results depend on the processing

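The share of mesenchymal-like cells, 12.7%, was 7.05% with at least 4 mesenchymal genes, 6.39% with at most 1 epithelial gene, 9.85% after thinning to 500 UMIs, 10.1% with no myeloid or fibroblast UMI and 29.7% together with the double-positive cells, an alternative chosen after seeing the data. Against all other cells (123 higher, 463 lower), the higher genes were 201 with at most 1 epithelial gene, 211 with 1 CPM added and 31 with 50 CPM added, and 209 with a minimum of 20 UMIs and 311 with none. The lower genes were 136 with 50 CPM added and 759 with either other minimum. Against epithelial-like cells (112 higher, 143 lower), the higher genes were 74 with at most 1 epithelial gene, 23 after thinning, 63 with 50 CPM added, and 264 and 724 with a minimum of 20 UMIs and none. The lower genes were 29 after thinning (444 genes tested), 311 with gut epithelium kept, and 378 and 850 with the other minimums. Between tumors (79 higher, 102 lower), a minimum of 20 UMIs gave 184 higher and 291 lower, none gave 1728 and 2379, and cells at their own depth gave 236 higher and 105 lower. The causes were not tested, beyond the number of genes that each minimum lets in.

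TMM and median-of-ratios scaling moved the median log2 ratio against all other cells from -0.0285 to -0.137 and -0.117, with 87 and 95 higher and 538 and 530 lower genes. No named gene reversed. Of the values for named genes under these alternatives, 25 of 300, 23 of 320 and 11 of 180 in the 3 comparisons moved by more than their counting error. No paired analysis was possible because the technical replicates, which share numbers between the tumors, are pooled in 1 table per tumor, and for the same reason no replicate could be left out. Depth limits genes under 11.2 CPM in the mesenchymal-like cells.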
